A study of Mus musculus with 30 samples.

Results

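Interferon-stimulated genes are the set that cells switch on when interferon reaches them, and 39 of them, chosen by symbol from the array's annotation, are described here in mouse liver and skeletal muscle. Of the 39, 38 had a probe, with 62 probes in all among the 16593 genes on the array, and Ifi44 had none. A probe was kept in a tissue if 5 or more of its 15 arrays gave a detection p-value below 0.02. By this rule 32 members were measured in liver, among 7725 genes, and 22 in muscle, among 7752 genes.

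RNA came from male C57BL/6J mice on 3 diets, with 5 arrays for each tissue and diet and 30 arrays in all. One group ate standard AIN-93G chow containing SRT2104, a synthetic compound that activates the SIRT1 deacetylase, at 1.33 g per kg of chow, which gives about 100 mg per kg of body weight a day. The calorie restriction (CR) group ate 40% less of the chow, and the standard diet (SD) group ate it freely without the compound. The labels date the start of the diets to 28 weeks of age. They give CR mice an age of 41 weeks with 14 weeks on the diet and place the SD and SRT2104 sampling at the end of life, whereas the design notes take all mice after 41 weeks. For the arrays the study's methods state, without setting any diet apart, the age and time on diet that the labels give for CR. No mouse was a genetic model, and no source used here says which liver and muscle came from 1 mouse.

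Interferons bind receptors on the cell surface, and kinases of the JAK family then phosphorylate STAT proteins. A complex that holds STAT2 and IRF9 binds the interferon-stimulated response element (ISRE) in promoters, whereas the response to interferon gamma runs through the gamma-activated site (GAS). The products sense viral RNA, degrade or withhold it from translation, modify proteins with ISG15, and load antigen, and in liver both hepatocytes and Kupffer cells can make them. Inbred laboratory strains such as C57BL/6 carry a non-functional Mx1.

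The promoters of 6 members called in liver or muscle are shown, chosen among those with an entry in the promoter table, which holds neither Usp18 nor Dhx58. They run from 250 bases before to 50 after the start of transcription in the RefSeq table (build GRCm38.p6), 5′ to 3′ on the strand of the gene, with matches to the ISRE letters GAAANNGAAA on either strand in capitals.
Isg15, chr4:156200769-156201068, minus strand: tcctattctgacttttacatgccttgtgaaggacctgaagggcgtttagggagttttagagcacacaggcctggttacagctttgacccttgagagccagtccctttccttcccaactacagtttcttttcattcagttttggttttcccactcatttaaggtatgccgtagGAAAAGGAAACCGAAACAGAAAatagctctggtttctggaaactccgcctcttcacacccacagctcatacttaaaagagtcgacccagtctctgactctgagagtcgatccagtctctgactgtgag
Rsad2, chr12:26456403-26456702, minus strand: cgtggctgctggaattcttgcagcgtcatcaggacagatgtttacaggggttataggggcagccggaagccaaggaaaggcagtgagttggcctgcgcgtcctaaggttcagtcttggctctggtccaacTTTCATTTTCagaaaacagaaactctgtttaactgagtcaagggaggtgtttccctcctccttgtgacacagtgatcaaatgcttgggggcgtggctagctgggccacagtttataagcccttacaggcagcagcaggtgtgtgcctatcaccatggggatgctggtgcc
Eif2ak2, chr17:78882523-78882822, minus strand: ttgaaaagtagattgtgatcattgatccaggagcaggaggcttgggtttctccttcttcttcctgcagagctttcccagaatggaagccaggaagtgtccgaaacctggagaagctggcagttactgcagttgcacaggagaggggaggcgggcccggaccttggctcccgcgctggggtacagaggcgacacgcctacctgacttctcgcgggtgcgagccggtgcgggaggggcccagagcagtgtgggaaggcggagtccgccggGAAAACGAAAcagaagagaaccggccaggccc
Stat2, chr10:128270248-128270547, plus strand: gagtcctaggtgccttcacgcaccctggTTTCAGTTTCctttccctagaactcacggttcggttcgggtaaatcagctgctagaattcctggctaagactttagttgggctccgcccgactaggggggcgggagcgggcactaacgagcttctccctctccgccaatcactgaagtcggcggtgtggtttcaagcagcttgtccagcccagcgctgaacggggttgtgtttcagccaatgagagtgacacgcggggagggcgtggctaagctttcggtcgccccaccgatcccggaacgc
Irgm1, chr11:48871371-48871670, minus strand: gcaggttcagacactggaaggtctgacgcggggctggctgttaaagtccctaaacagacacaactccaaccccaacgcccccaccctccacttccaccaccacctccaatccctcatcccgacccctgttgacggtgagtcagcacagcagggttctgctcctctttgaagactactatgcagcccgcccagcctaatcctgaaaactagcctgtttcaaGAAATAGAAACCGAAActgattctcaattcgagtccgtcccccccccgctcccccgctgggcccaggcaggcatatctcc
Bst2, chr8:71537423-71537722, minus strand: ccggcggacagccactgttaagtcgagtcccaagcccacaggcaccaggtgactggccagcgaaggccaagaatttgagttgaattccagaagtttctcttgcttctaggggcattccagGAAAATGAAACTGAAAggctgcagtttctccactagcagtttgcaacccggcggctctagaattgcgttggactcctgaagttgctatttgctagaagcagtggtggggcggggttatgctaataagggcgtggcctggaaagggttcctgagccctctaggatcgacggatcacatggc

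In the Isg15 promoter 3 matches overlap, the first beginning 78 bases before the start, and in Irgm1 and Bst2 pairs of matches overlap. Rsad2 had 1 match, 120 bases before the start on the opposite strand, and the match of Eif2ak2 began 18 bases after the start. Every promoter shown has a match, whereas Irf9, also called in liver, had entries without any and is not shown. The promoter table held 28 of the 39 members, and 17 of these (60.7%) had the ISRE letters, against 3.99% of the 27025 genes in the table and 3.44% of its 32851 promoters. The GAS letters TTCNNNGAA were present for 8 of the 28 members (28.6%), against 9.55% of all genes and 8.3% of all promoters. A match is a description of the sequence.

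Levels below are array signals in log2 units after every array of a tissue was brought to 1 mean and spread, so that a difference of 1 unit is a doubling. A gene is read from its brightest kept probe. Diets were compared with limma over all 15 arrays of a tissue, and a gene was called where its Benjamini-Hochberg adjusted p over all kept probes of that tissue was under 0.05. The design notes give 5 mice a group, and the p-values measure the spread between these arrays. Median signals of kept probes before rescaling ran at 351 to 480 in SRT2104, 407 to 471 in CR and 470 to 603 in SD livers, and at 224 to 266 in SRT2104, 155 to 288 in CR and 272 to 480 in SD muscles. In muscle 3 arrays stood apart from their group (SRT2104 replicate 3, CR replicate 3 and SD replicate 1, median correlation 0.903, 0.811 and 0.966 with the other arrays of their group). CR replicate 2, at 0.964, was retained. Muscle values are therefore also given over the 12 other arrays. Hepatocyte transcripts were at a mean of 14.83 log2 units on muscle SRT2104 replicate 3, against a median of 8.21 over the SRT2104 muscles, 8.13 over the CR muscles and 7.42 over the SD muscles.

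In SRT2104 livers the antiviral gene Rsad2, the ubiquitin-like modifier Isg15, the RNA helicase Dhx58 and the kinase Eif2ak2 were lower than in SD livers, by 0.30 to 0.90 log2 units. These were the 4 members called lower of 32 (12.5%), and 0 were called higher. Among all 7725 genes, 1.79% were called lower and 1.54% higher. The median difference of the members was -0.12 log2 units, against -0.0023 for all genes, and 23 of 32 lay below 0. At an unadjusted p under 0.05, 8 members were lower and 1 was higher. The share of all genes at that threshold was not counted.

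In CR livers members of the ISG15 system, antiviral effectors and single genes of several other roles were called lower than in SD livers. Here 10 of 32 members were called lower and 1, Stat2, was called higher, 34.4% in all. The background was wide in this comparison, with 13.6% of all genes called lower and 14.0% higher. The median over the members was -0.12 log2 units, against 0.0049 over all genes, and 23 of 32 were below 0. The SRT2104 and CR comparisons share their SD arrays.

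**Figure D1:**
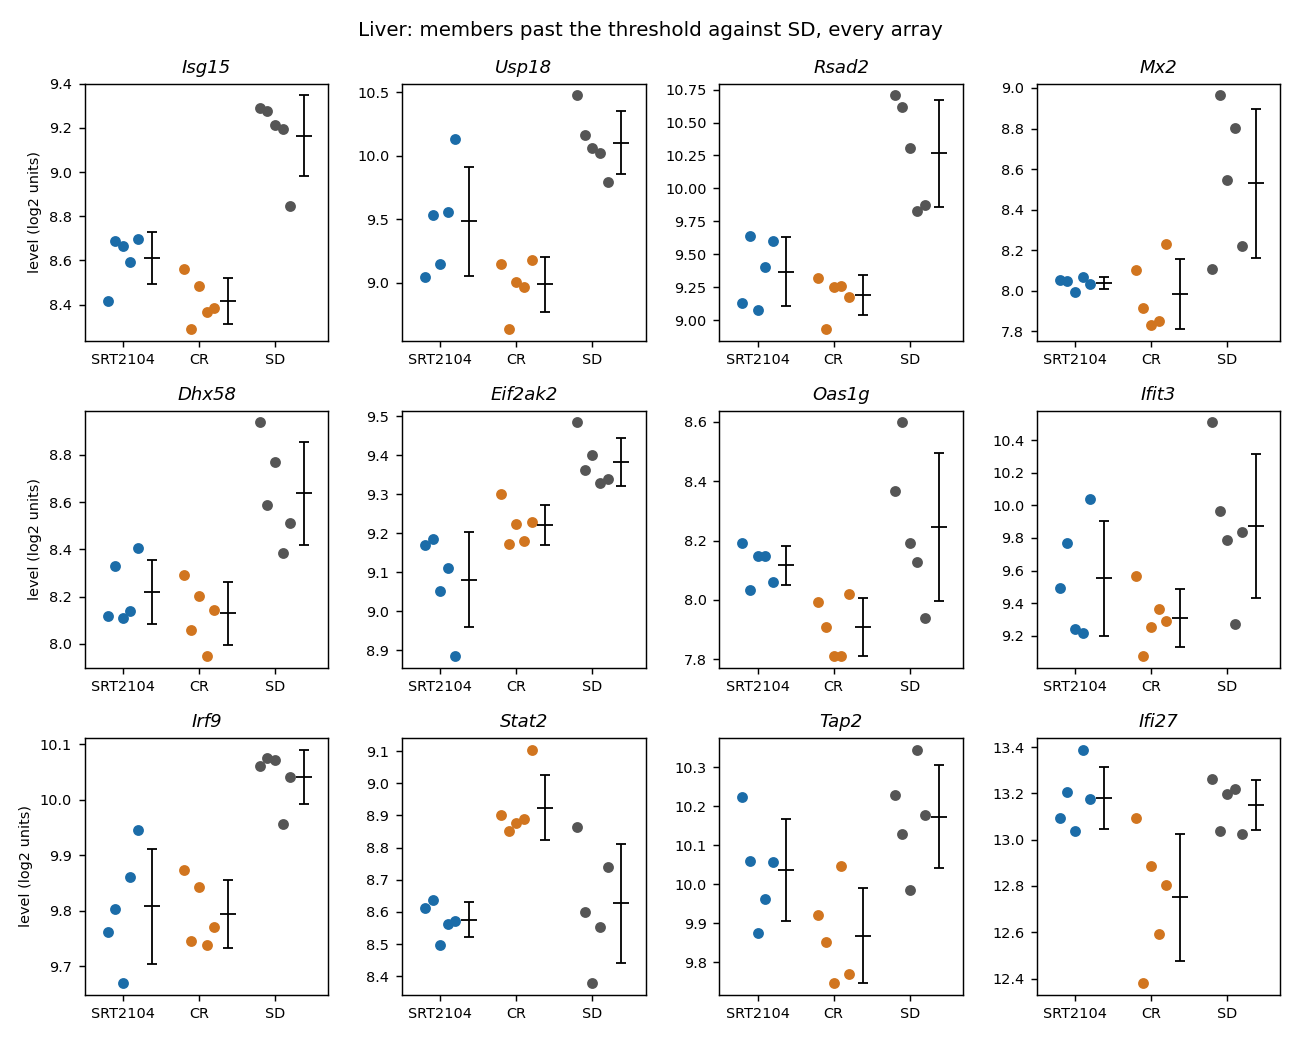
Level in log2 units of the 12 members called in at least 1 liver comparison with SD, with 1 point per array, diets from left to right (SRT2104, CR, SD) and the mean with its SD (n = 5) beside the points. All SRT2104 and CR arrays lie below all SD arrays for Isg15, Rsad2, Eif2ak2 and Irf9, and Stat2 is highest in CR. Each panel has its own vertical range, which does not start at 0.

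The ISG15 system tags proteins with ISG15, which Usp18 removes. Isg15 was at 8.42, 8.69, 8.66, 8.59 and 8.70 in SRT2104 livers, at 8.56, 8.29, 8.48, 8.36 and 8.38 in CR livers, and at 9.29, 9.28, 9.21, 9.20 and 8.85 in SD livers. Neither treated group overlapped with SD. The difference was -0.55 ± 0.09 for SRT2104 minus SD (log2 units ± SE, adjusted p = 0.00413) and -0.75 ± 0.09 for CR minus SD (adjusted p = 2.05e-05), or 0.681 and 0.595 times the SD level.

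Usp18, the ISG15 protease that also restrains the type I interferon receptor, was at 9.04, 9.54, 9.15, 9.55 and 10.14 in SRT2104 livers, at 9.14, 8.64, 9.01, 8.97 and 9.18 in CR livers, and at 10.48, 10.17, 10.06, 10.02 and 9.79 in SD livers. CR did not overlap with SD, whereas SRT2104 replicate 5 lay within the SD range. CR minus SD was -1.11 ± 0.17 (adjusted p = 2.25e-04), a level 0.462 times that of SD, and SRT2104 minus SD was -0.62 ± 0.17 (adjusted p = 0.0587). Both other kept probes of Usp18 were also called lower in CR (-1.04 and -0.70). For SRT2104 minus SD they were at -0.45 and -0.15 (adjusted p = 0.107 and 0.603) and were not called. Trim25, a ligase for ISG15 and ubiquitin, was not called, at 0.12 for SRT2104 minus SD and 0.14 for CR minus SD.

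Among the antiviral effectors, Rsad2 encodes viperin, an enzyme that makes a chain-terminating nucleotide. Its level was 9.13, 9.64, 9.08, 9.40 and 9.60 in SRT2104 livers, 9.32, 8.94, 9.25, 9.26 and 9.18 in CR livers, and 10.71, 10.61, 10.31, 9.83 and 9.88 in SD livers. The SD livers were spread over the widest range, and every one of them lay above every treated liver. SRT2104 minus SD was -0.90 ± 0.16 (adjusted p = 0.00873) and CR minus SD was -1.08 ± 0.16 (adjusted p = 1.82e-04), or 0.537 and 0.474 times the SD level.

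Mx2, a gene of the dynamin-like Mx GTPase family, was at 8.05, 8.05, 7.99, 8.07 and 8.03 in SRT2104 livers, at 8.10, 7.91, 7.83, 7.85 and 8.23 in CR livers, and at 8.11, 8.96, 8.55, 8.80 and 8.22 in SD livers. The SRT2104 livers were nearly level with one another and all below SD, but the SD spread was wide. The CR minus SD difference was -0.54 ± 0.13 (adjusted p = 0.00655), and SRT2104 minus SD was -0.49 ± 0.13 (adjusted p = 0.0527). Bst2, which tethers budding virus, and Ifitm3, which blocks viral entry, were not called (SRT2104 minus SD -0.06 and 0.11, CR minus SD -0.22 and 0.07). Mx1 was not detected on any liver or muscle array.

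The sensors recognise viral RNA or DNA in the cell. Dhx58 encodes LGP2, a helicase related to RIG-I, and was at 8.12, 8.33, 8.11, 8.14 and 8.40 in SRT2104 livers, at 8.29, 8.06, 8.20, 7.95 and 8.14 in CR livers, and at 8.94, 8.59, 8.77, 8.38 and 8.51 in SD livers. CR lay wholly below SD, and the highest SRT2104 liver reached just above the lowest SD liver. The difference was -0.42 ± 0.10 for SRT2104 minus SD (adjusted p = 0.0329) and -0.51 ± 0.10 for CR minus SD (adjusted p = 0.00156). The SRT2104 call was lost without SD replicate 1 or 3, or without SRT2104 replicate 1, 3 or 4 (adjusted p up to 0.0839). It was also lost with only the 2 diets in the fit, by the methods' t-test after Benjamini-Hochberg, and with neqc, which corrects background from the detection p-values and then applies quantile normalization.

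Eif2ak2 encodes PKR, which halts translation when it binds double-stranded RNA. It was at 9.17, 9.19, 9.05, 9.11 and 8.88 in SRT2104 livers, at 9.30, 9.17, 9.22, 9.18 and 9.23 in CR livers, and at 9.48, 9.36, 9.40, 9.33 and 9.34 in SD livers. Both treated groups lay wholly below SD, SRT2104 by more. SRT2104 minus SD was -0.30 ± 0.07 (adjusted p = 0.0198) and CR minus SD was -0.16 ± 0.07 (adjusted p = 0.0805). The SRT2104 call was lost without SRT2104 replicate 3 (adjusted p = 0.0515), with neqc, with only the 2 diets in the fit and by the methods' t-test after Benjamini-Hochberg (adjusted p up to 0.0947). Ddx58, the RIG-I gene, was at -0.23 for CR minus SD, just short of the threshold, and the DNA sensor Zbp1 was at -0.02. Ifih1, the MDA5 gene, was not detected on any liver array.

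The oligoadenylate synthetases make the messenger that activates RNase L. Oas1g was at 8.19, 8.03, 8.15, 8.15 and 8.06 in SRT2104 livers, at 7.99, 7.91, 7.81, 7.81 and 8.02 in CR livers, and at 8.37, 8.60, 8.19, 8.13 and 7.94 in SD livers. For CR minus SD the value was -0.34 ± 0.10 (adjusted p = 0.0179), with SD replicate 5 inside the CR range, and SRT2104 minus SD was -0.13 ± 0.10 (adjusted p = 0.505). Oas1g and Oas1a are close copies in 1 gene cluster, and a probe may not separate them. Its other kept probe gave -0.07 for CR minus SD and was not called. Oasl1, Oasl2 and Oas2 were not called, at -0.44, -0.17 and 0.23 for SRT2104 minus SD and at -0.12, 0.07 and 0.05 for CR minus SD. The Oas1a probe was not detected on any liver array.

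IFIT proteins bind viral RNA that lacks the host cap. Ifit3 was at 9.49, 9.77, 9.24, 9.22 and 10.04 in SRT2104 livers, at 9.56, 9.07, 9.25, 9.36 and 9.29 in CR livers, and at 10.51, 9.96, 9.79, 9.27 and 9.83 in SD livers. Both treated groups overlapped with SD. CR minus SD was -0.57 ± 0.19 (adjusted p = 0.0345), and SRT2104 minus SD was -0.32 ± 0.19 (adjusted p = 0.366). The CR call was lost without any one of 7 arrays (SD replicates 1, 2 and 5 and CR replicates 2, 3, 4 and 5, adjusted p up to 0.0787) and under neqc, quantile normalization, no detection filter or the methods' t-test after Benjamini-Hochberg. Of its other kept probes, 1 was called lower in CR (-0.39) and the other was at -0.29. Ifit2 was not called, at 0.05 for SRT2104 minus SD and 0.04 for CR minus SD.

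The transcription factors went in different directions. Irf9, the DNA-binding part of the STAT complex, was at 9.76, 9.80, 9.67, 9.86 and 9.95 in SRT2104 livers, at 9.87, 9.75, 9.84, 9.74 and 9.77 in CR livers, and at 10.06, 10.07, 10.07, 9.96 and 10.04 in SD livers. The ranges of the treated livers lay just below that of SD. Irf9 was at -0.25 ± 0.06 for CR minus SD (adjusted p = 0.00832), lost with neqc (adjusted p = 0.0506), and SRT2104 minus SD was -0.23 ± 0.06 (adjusted p = 0.0515). Its other kept probe was at -0.26 and -0.02 in these comparisons and was not called.

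Stat2, a partner of Irf9 in the same complex, was the member called higher in CR livers. It was at 8.61, 8.64, 8.50, 8.56 and 8.57 in SRT2104 livers, at 8.90, 8.85, 8.87, 8.89 and 9.10 in CR livers, and at 8.86, 8.60, 8.38, 8.55 and 8.74 in SD livers. CR minus SD was 0.30 ± 0.08 (adjusted p = 0.0142), with SD replicate 1 within the CR range, and SRT2104 minus SD was -0.05 ± 0.08. The CR call was lost with no detection filter and by the methods' t-test after Benjamini-Hochberg (adjusted p up to 0.0629). Irf1 and Irf7, which are themselves induced and amplify the response, were not called, at -0.20 and -0.05 for SRT2104 minus SD and at -0.04 and -0.06 for CR minus SD.

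Tap2, a subunit of the pump that moves peptides to MHC class I, was at 10.22, 10.06, 9.88, 9.96 and 10.06 in SRT2104 livers, at 9.92, 9.85, 9.75, 10.05 and 9.77 in CR livers, and at 10.23, 10.13, 9.98, 10.35 and 10.18 in SD livers. In CR the difference from SD was -0.31 ± 0.08 (adjusted p = 0.013), with overlap at 1 liver, and SRT2104 minus SD was -0.14 ± 0.08. Its partner Tap1 was not called (-0.03 for SRT2104 minus SD and -0.10 for CR minus SD), nor was the chemokine Cxcl10 (0.15 and 0.06).

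Ifi27, an interferon-induced membrane protein, was at 13.09, 13.21, 13.04, 13.39 and 13.17 in SRT2104 livers, at 13.09, 12.38, 12.89, 12.59 and 12.80 in CR livers, and at 13.26, 13.04, 13.20, 13.22 and 13.03 in SD livers. The CR livers were the low ones, apart from replicate 1. CR minus SD was -0.40 ± 0.11 (adjusted p = 0.0143), and SRT2104 minus SD was 0.03 ± 0.11. The CR call was lost with no detection filter and by the methods' t-test after Benjamini-Hochberg (adjusted p up to 0.0716), and the other kept probe was at -0.14 and was not called.

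The remaining members were not called in liver by their brightest probes. The immunity-related and guanylate-binding GTPases act in defence against intracellular parasites. Of these, Irgm1, Igtp, Gbp2 and Gbp3 were at -0.12, -0.28, -0.12 and -0.28 for SRT2104 minus SD and at 0.09, -0.05, -0.08 and -0.44 for CR minus SD. The probes of Irgm1 differed here. Its other kept probe was called lower in SRT2104 livers (-0.56 ± 0.10, adjusted p = 0.00935) and was at 0.07 for CR minus SD. Ifi35, Parp14 and Rtp4 lay between -0.05 and 0.06 for SRT2104 minus SD and between -0.13 and 0.05 for CR minus SD. Ifih1, Oas1a, Ifit1, Mx1, Iigp1 and Xaf1 did not pass the detection filter in either tissue.

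**Figure D2:**
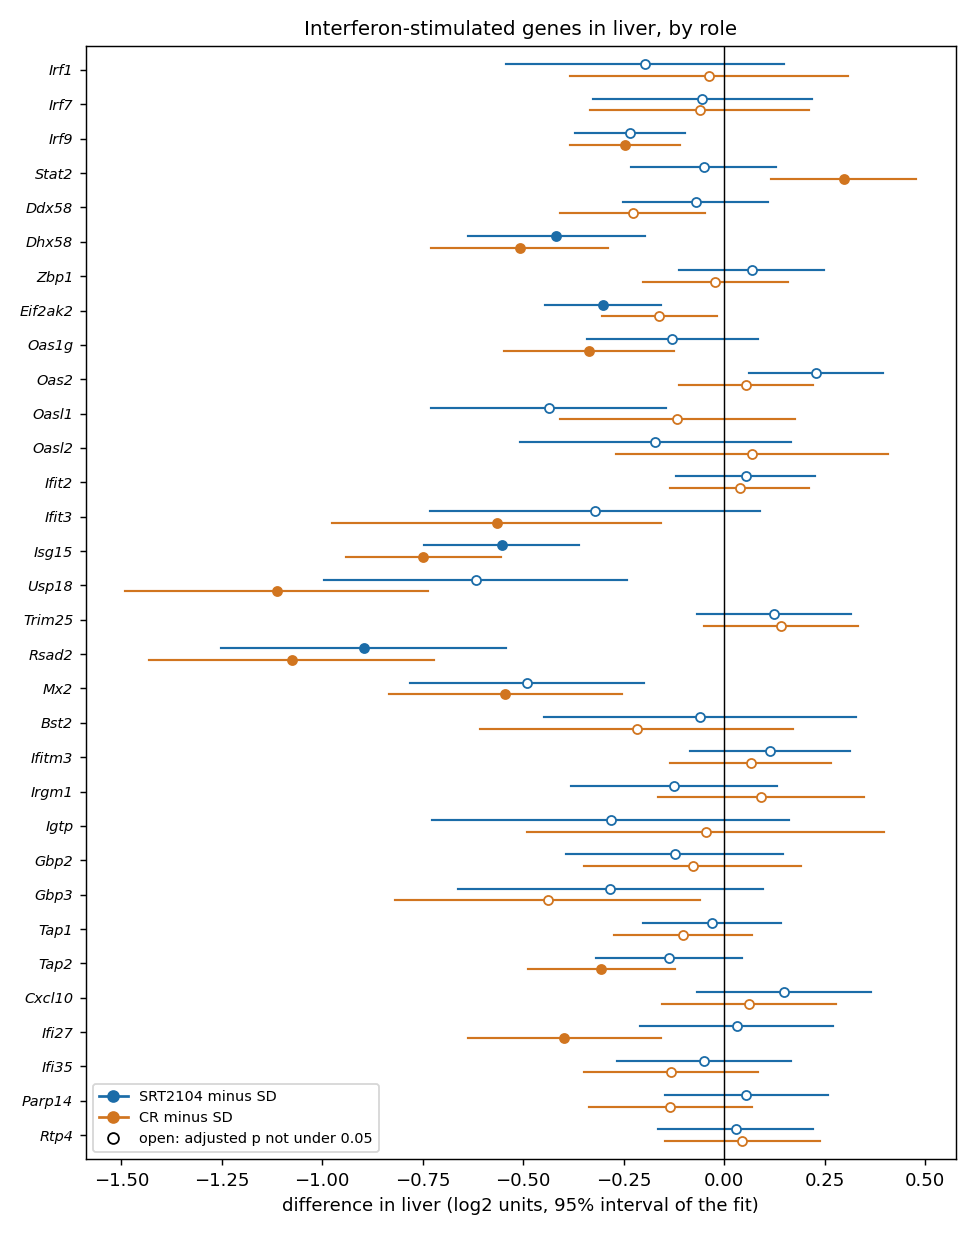
Difference from SD in liver, in log2 units, of the 32 measured members ordered by role, with SRT2104 minus SD above CR minus SD for each gene. Lines are 95% intervals from the standard error of the limma fit over 15 arrays. They use the residual degrees of freedom and are slightly wider than those behind limma's p-values. Filled points have an adjusted p under 0.05: 4 for SRT2104 and 11 for CR, of which only Stat2 lies to the right of 0.

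The direct comparison of SRT2104 with CR livers called 2 members higher (Usp18 and Ifi27) and 1 lower (Stat2) of 32, where 13.6% of all genes were called higher and 14.7% lower. Usp18 was 0.50 ± 0.17 log2 units higher in SRT2104 livers (adjusted p = 0.0419), and 6 of 15 single-array omissions ended that call (the omission of SRT2104 replicate 2, 4 or 5 or of CR replicate 2, 3 or 4, adjusted p up to 0.105). It was also lost with no detection filter, with the replicate block and by the methods' t-test, adjusted or not. Both other kept probes of Usp18 were called higher in the main fit (0.59 ± 0.15 and 0.55 ± 0.14, adjusted p = 0.0078 and 0.0071). Ifi27 was 0.43 ± 0.11 higher (adjusted p = 0.0084) by its brightest probe, and its other kept probe was at 0.02 (adjusted p = 0.92). Irgm1 was not called by its brightest probe (-0.22), whereas its other kept probe was lower (-0.63 ± 0.10, adjusted p = 3.45e-04). Ifit3 was not called by its brightest probe. Of its other kept probes, 1 was called higher (0.29 ± 0.10, adjusted p = 0.0357) and 1 was not called (0.25 ± 0.12, adjusted p = 0.139). Stat2 was 0.35 lower (-0.35 ± 0.08, adjusted p = 0.00501), and all 5 SRT2104 livers lay below all 5 CR livers. For Isg15 and Rsad2 the difference was 0.20 ± 0.09 and 0.18 ± 0.16, and their 95% intervals bound any excess in SRT2104 livers at 0.39 and 0.53 log2 units.

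Averaged over the 32 members, the SRT2104 livers were at 9.17, 9.32, 9.11, 9.22 and 9.36, the CR livers at 9.28, 9.05, 9.17, 9.18 and 9.25, and the SD livers at 9.59, 9.45, 9.34, 9.28 and 9.33. SD replicate 1 was the highest of the 15, and 27 of its 32 members lay above their SD mean. Without it the counts of called members against SD were 4 for SRT2104 and 10 for CR. The called sets changed, as Dhx58 was no longer called for SRT2104 and Ifit3 no longer for CR.

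**Figure D3:**
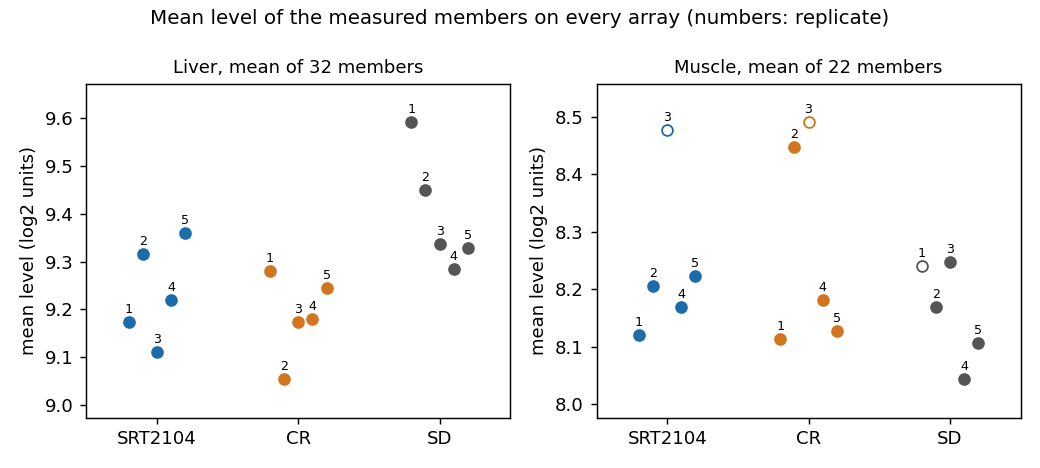
Mean level in log2 units over the measured members (32 in liver, 22 in muscle) on each array, by diet, with the replicate number above each point and open circles for the 3 muscle arrays that stood apart. In liver, SD replicate 1 is highest at 9.59. In muscle, CR replicates 2 and 3 and SRT2104 replicate 3 lie at 8.45 to 8.49 and the other 12 arrays between 8.04 and 8.25.

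With the diet means removed, members varied together from liver to liver. Over 15 livers the median correlation of 496 member pairs was 0.23, and 20.8% of pairs were above 0.5, against a median of 0.0033 and 7.34% for pairs of all genes. All members share these 15 arrays and their rescaling. Gbp3, Ifit3, Rsad2 and Usp18 followed the mean of the other members most closely (r = 0.90, 0.86, 0.85 and 0.82), and Gbp3 and Ifit3 formed the closest pair (r = 0.92). Zbp1, Ddx58 and Mx2 did not follow it (r = -0.40, -0.23 and -0.17). Outside the interferon lists, the genes closest to the member mean over the 15 livers were Fas (r = 0.84), Usp4 (0.82), Mbl2 (0.82), Chchd5 (0.79) and Pmpcb (0.79). In muscle the median over 231 pairs was 0.30 with 15 arrays (32.5% above 0.5, against 19.7% for all genes) and 0.23 with 12 (27.7%, against 10.3%). The closest genes over the 15 muscles were Sirt7 (r = 0.94), Rnf181 (0.93), Efna5 (0.92), Dstn (0.92) and Smim14 (0.91). Over the 12 muscles they were Cyp4f13 (r = 0.96), Ppp4c (0.94), Ptms (0.93), Efna5 (0.93) and Ywhaq (0.93), with Efna5 the one gene in both lists.

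Genes around the members in the interferon pathway were counted from 5 further lists. In SRT2104 livers 0 of 12 measured receptors and JAK-STAT genes and 0 of 27 further interferon-stimulated genes were called, with list medians of -0.08 and -0.12 log2 units. Among 15 upstream sensors and adaptors, Mavs, the adaptor of the RNA helicases, was higher (0.34 ± 0.07, adjusted p = 0.0175). None of 14 genes for MHC class I and its proteasome was called. Of all genes, 1.54% were called higher and 1.79% lower in this comparison.

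In CR livers 9 of the 27 further interferon-stimulated genes were called lower and 0 higher (list median -0.18 log2 units), where 13.6% of all genes were called lower and 14.0% higher. They included the necroptosis effector Mlkl (-0.53), the nuclear body protein Pml (-0.53), Trafd1 (-0.55), Lgals3bp (-0.48) and the ISG15-conjugating enzyme Ube2l6 (-0.40). Of the 12 receptor and JAK-STAT genes, 4 were lower, Stat3 (-0.85), the kinases Jak2 (-0.38) and Tyk2 (-0.32) and the phosphatase Ptpn6 (-0.26), and the kinase Jak1 was higher (0.30). Psmb9 (-0.57) and H2-T23 (-0.25) of the antigen presentation list were lower and Psmb10 (0.36) was higher, among 14, shares near or under those of all genes. Of the upstream list, Unc93b1 (-0.41), which carries Toll-like receptors to endosomes, was lower and Mavs (0.25) higher. Of 7 interferon genes with a probe only Ifna1 was kept, and it was not called.

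Markers of macrophages and leukocytes moved in the CR livers as well. Of 10 measured macrophage and Kupffer cell markers, 4 were called lower in CR (C1qc -0.42, C1qb -0.44, Clec4f -0.29 and C1qa -0.23) and 0 in SRT2104, with 0 higher in either. Of all genes, 13.6% were called lower in CR and 1.79% in SRT2104. Their summed signal was 6492 to 7408 in SRT2104, 5308 to 6872 in CR and 6057 to 9223 in SD livers. Both measured general leukocyte markers, Laptm5 (-0.44) and Coro1a (-0.50), were lower in CR, with a sum of 2168 to 2952 in SRT2104, 1604 to 1978 in CR and 2174 to 3096 in SD livers. Of 10 T- and NK-cell markers with a probe, 1 was kept in liver, and Cd3e, Cd3d, Cd3g, Cd8a and Cd4 were not. Hepatocyte markers were called higher for 4 of 6 genes in SRT2104 and 2 of 6 in CR livers, where 1.54% and 14.0% of all genes were. The part of these markers in the members' differences was not tested, and in whole tissue fewer cells of a type and less RNA per cell cannot be told apart.

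In muscle 10 of the members measured in liver did not pass the detection filter (Irf7, Stat2, Dhx58, Oas2, Oasl1, Trim25, Mx2, Tap1, Cxcl10 and Rtp4). The GTPase Irgm1 was higher in SRT2104 muscles than in SD muscles by its brightest probe. It was 1 member called higher of 22 (4.55%), where 3.99% of all genes were called higher and 5.33% lower. Over 12 arrays 2 members, Irgm1 and Bst2, were called higher and 0 lower, where 18.9% of all genes were called higher and 11.8% lower. Leaving out 1 further array gave 1 or 2 called members, except for CR replicate 2, without which 5 were called (3 higher and 2 lower). The omissions of SD replicates 2 and 5 and SRT2104 replicates 2 and 5 gave 1. The shares of the members called higher over 15 and over 12 arrays are close to or under those of all genes. For the further omissions the share of all genes was not counted. The member median was 0.12 log2 units with 15 arrays and 0.04 with 12, against 0.07 for all genes in both.

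Irgm1, a GTPase needed for control of intracellular bacteria, was at 11.98, 11.92, 11.90, 12.43 and 12.43 in SRT2104 muscles, at 11.88, 11.36, 12.57, 11.93 and 11.95 in CR muscles, and at 11.25, 11.49, 11.52, 11.59 and 11.69 in SD muscles. All SRT2104 muscles lay above all SD muscles, and the lowest SD and highest CR values were on arrays that stood apart. SRT2104 minus SD was 0.63 ± 0.18 over 15 arrays (adjusted p = 0.0418) and 0.62 ± 0.15 over 12 (adjusted p = 0.00592), or 1.54 and 1.53 times the SD level. Before rescaling, the signals overlapped, at 3266 to 5831 in SRT2104 and 2835 to 5461 in SD muscles. With 15 arrays the call was lost in 12 of 15 single-array omissions (all but those of SRT2104 replicate 3 and CR replicates 2 and 3), with neqc, with the deposited scores as they are, and without a detection filter (adjusted p up to 0.168). The probes of Irgm1 disagreed in muscle. Its other kept probe was at -0.31 over 15 arrays (adjusted p = 0.145) and was called lower over 12, at -0.28 ± 0.08 (adjusted p = 0.0205), with no overlap between SRT2104 and SD, so that no direction is settled for the gene.

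Bst2 was at 7.53, 7.60, 8.54, 7.41 and 7.99 in SRT2104 muscles, at 6.98, 7.26, 7.53, 7.41 and 7.16 in CR muscles, and at 7.14, 7.25, 7.43, 7.24 and 7.16 in SD muscles. The highest value was that of SRT2104 replicate 3, the array with hepatocyte transcripts. SRT2104 minus SD was 0.57 ± 0.18 with it (adjusted p = 0.0541) and 0.36 ± 0.12 over the 12 arrays (adjusted p = 0.0359). Hepatocyte markers differed over these 12 arrays as well, with a median of 0.72 for SRT2104 minus SD over 4 measured genes and 1 of them, Apoa1, called higher (0.76 ± 0.23, adjusted p = 0.023). Of all genes, 18.9% were called higher in that fit. The part of the hepatocyte markers in the Bst2 value was not tested. The Bst2 signal passed detection on all 5 SRT2104, 2 CR and 4 SD muscles.

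**Figure D4:**
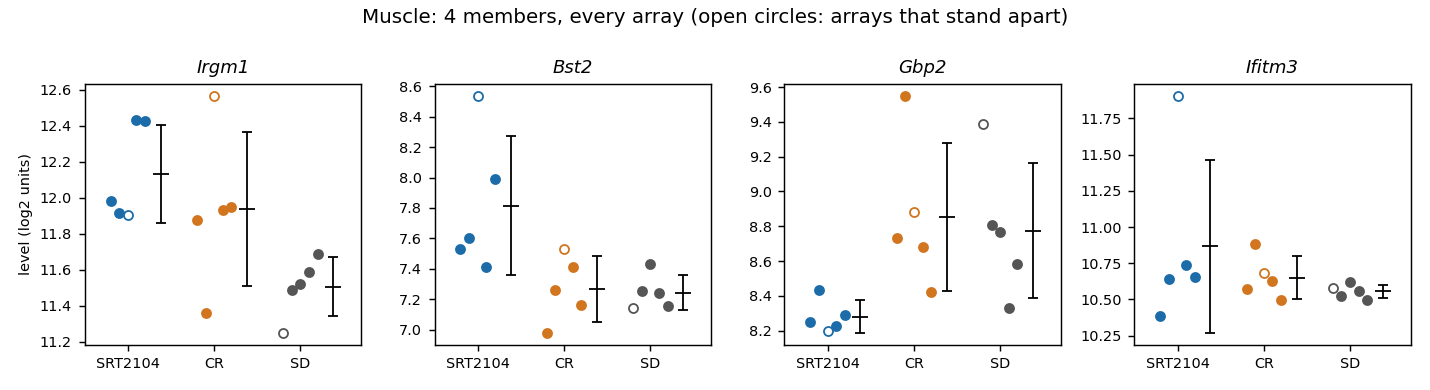
Level in log2 units of Irgm1, Bst2, Gbp2 and Ifitm3 on the 15 muscle arrays, by diet (SRT2104, CR, SD), with the mean and SD of all 5 arrays beside the points and open circles for the 3 arrays that stood apart. Irgm1 is above SD on all 5 SRT2104 arrays, and the top Bst2 and Ifitm3 points (8.54 and 11.91) are both SRT2104 replicate 3. Vertical ranges differ between panels and do not start at 0.

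Ifitm3, too, was highest on that array. It read 11.91 on SRT2104 replicate 3 and 10.39 to 10.74 on the other SRT2104 muscles, against 10.50 to 10.62 on the SD muscles. SRT2104 minus SD was 0.31 ± 0.21 over 15 arrays and 0.06 ± 0.09 over 12, with no call in either. Rsad2, which was lower in both treated livers, was at -0.43 (adjusted p = 0.155) over 15 and -0.47 (adjusted p = 0.0697) over 12 muscle arrays for SRT2104 minus SD. Isg15 and Usp18 were at 0.14 and 0.17 over 15 arrays.

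Between CR and SD muscles limma called 0 of the 22 members over 15 arrays (0.426% of all genes) and 0 over 12 (1.91%). At an unadjusted p under 0.05 there was 1 member over 15 arrays and 2 over 12, and the methods' t-test called 0 unadjusted. The share of all genes was not counted without adjustment. Differences lay between -0.18 and 0.47 log2 units over 15 arrays.

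Between SRT2104 and CR muscles 0 members were called over 15 arrays, where 9.98% of all genes were. At an unadjusted p under 0.05 there were 2 members, and the share of all genes was not counted there. Over 12 arrays Bst2 (0.43 ± 0.12, adjusted p = 0.0151) and Irgm1 (0.41 ± 0.15, adjusted p = 0.0436, brightest probe) were higher in SRT2104 muscles. The other kept probe of Irgm1 was called lower (-0.30 ± 0.08, adjusted p = 0.0126). Gbp2, a guanylate-binding GTPase, was lower (-0.55 ± 0.19, adjusted p = 0.0391). Of all genes, 20.7% were higher and 12.6% lower in that fit. The Gbp2 levels over all arrays were 8.25, 8.44, 8.20, 8.23 and 8.29 in SRT2104 muscles and 8.73, 9.55, 8.88, 8.68 and 8.42 in CR muscles, with CR replicate 2 the highest. Leaving out 1 further array gave between 0 and 3 called members, and the share of all genes was not counted for these omissions.

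Of 14 measured genes of the upstream list in muscle, 1 was called between SRT2104 and SD over 15 arrays. It was Tank, an adaptor that binds the kinase TBK1, which was lower in SRT2104 muscles (-1.09 ± 0.15, adjusted p = 8.08e-04). Of 12 receptor and JAK-STAT genes, Jak2 (-0.78) was lower and Tyk2 (0.32) higher in the same comparison. Of all genes, 5.33% were called lower and 3.99% higher. Macrophage markers were lower as well, C1qc at -0.999, C1qb at -0.74 and Lyz2 at -0.53, 3 of 8 measured. The summed signal of these markers was 1510 to 1963 in SRT2104, 2003 to 2759 in CR and 1984 to 2364 in SD muscles. Their part in the members' values was not tested.

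The difference of the 2 tissues in their response was tested as an interaction over the 22 members measured in both. For SRT2104 minus SD it was called for 4 of 22 (18.2%), among 9.15% of 6534 genes, and for CR minus SD for 3 of 22 (13.6%), among 4.93% of genes. In each of the 7 cases the liver difference was the lower one. Isg15 was at -0.55 in liver and 0.14 in muscle with SRT2104 (adjusted p = 0.00253), and at -0.75 and 0.12 with CR (adjusted p = 7.12e-04). In muscle the Isg15 signal was near the detection limit, at 135 to 207 in SRT2104, 129 to 175 in CR and 152 to 211 in SD. It passed detection on 4 of 5 arrays in each diet, so a fall in muscle could go unseen. Usp18, by its brightest probe, was at -0.62 in liver and 0.17 in muscle with SRT2104 (adjusted p = 0.032), and at -1.11 and 0.19 with CR (adjusted p = 0.0023). The other Usp18 probe kept in both tissues was at -0.45 in liver and 0.02 in muscle with SRT2104, and at -1.04 and 0.09 with CR.

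Eif2ak2 differed with SRT2104 (-0.30 in liver and 0.13 in muscle, adjusted p = 0.0369), as did the brightest probe of Irgm1 (-0.12 and 0.63, adjusted p = 0.0311). The other kept probe of Irgm1 was below 0 in both tissues (-0.56 in liver and -0.31 in muscle). Rsad2 differed with CR (-1.08 in liver and -0.18 in muscle, adjusted p = 0.0408) and was at -0.90 and -0.43 with SRT2104, where no difference between tissues was called. With 12 muscle arrays the 4 calls for SRT2104 stood among 25.1% of genes, and CR gave 5 of 22 (22.7%) among 11.3%, Irf9 and Ifi27 being added. For Ifi27 this used the brightest liver probe, which is not the brightest in muscle. Its other kept probe was at -0.14 for CR minus SD in liver and was not called there.

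**Figure D5:**
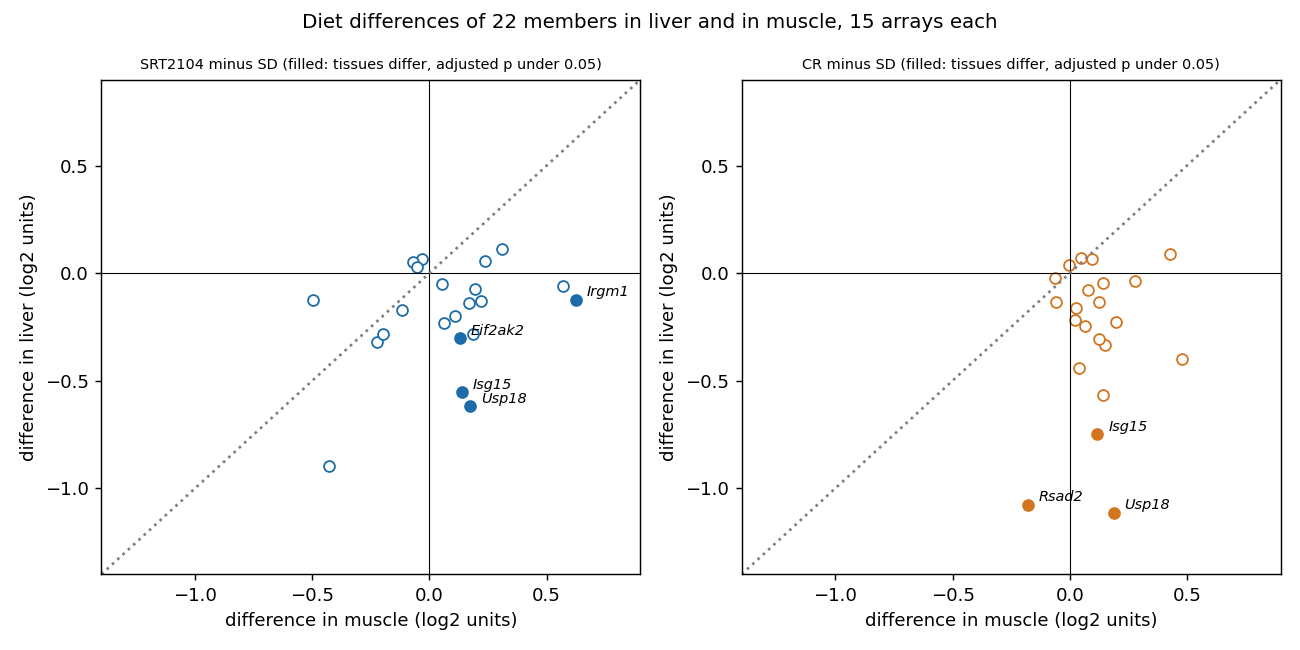
Difference from SD in liver (vertical) against that in muscle (horizontal), in log2 units, for the 22 members measured in both tissues, with SRT2104 on the left and CR on the right. Filled and named points had a tissue interaction with an adjusted p under 0.05 (4 and 3 members). The dotted line marks equal differences, and every filled point lies below it. The Isg15 signal was near the detection limit in muscle.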

How the data were processed

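RNA from 30 samples was hybridised to Illumina MouseRef-8 BeadChips and extracted with GenomeStudio 1.6.0, per the submitters' processing notes. The deposited bead intensities are linear signals with no normalization seen in the values, and each has a deposited detection p-value against negative control beads. The deposited scores are z-scores that the authors made from the natural log of each array's signals.

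Probes with a detection p-value below 0.02 on at least 5 of 15 arrays were kept. The scores were rescaled over the kept probes of an array to the tissue's mean and SD of log2 signal, so all values are relative to the array. Signal columns show the diet but not the replicate, and were used by group. Diets were tested with limma 3.58.1 in R 4.3.3 (lmFit, eBayes) over 15 arrays of a tissue with Benjamini-Hochberg adjustment over all kept probes, and tissues with an interaction term. Scripts were checked on simulated data. Plotting used Python 3.11.15 and its matplotlib 3.10.9. Symbols came from the platform annotation (23978 probes with 1 symbol, 1719 with none), and promoters from RefSeq.

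The members, gene lists and the 3 muscle arrays left out in the alternative were chosen with earlier results of these data known. Array values are given for members past the threshold in a comparison with SD, and other lists name up to 5 genes by adjusted p. The number of arrays limits the precision. Alternatives changed the normalization, detection filter, probe choice, arrays, replicate block and test.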

Additional observations from a re-analysis of the deposited data

Results flagged for a closer look

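Dixon's criterion was read for members called against SD in a tissue and for the mean of its members. Among these, 4 groups of 5 arrays held a value far from the other 4. Irf9 was at 9.96 on liver SD replicate 4 and at 10.04 to 10.07 on the other SD livers. Isg15 was at 8.85 on liver SD replicate 5, against 9.20 to 9.29 on the others. Stat2 was at 9.10 on liver CR replicate 5, against 8.85 to 8.90. The mean of the 22 members was 8.48 on muscle SRT2104 replicate 3, against 8.12 to 8.22 on the other SRT2104 muscles. Over single members, called or not, 162 groups were examined and 11 passed the critical value, where chance flags about 1 in 20 groups. Of the 11, 7 were on muscle arrays that stood apart.

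The liver difference minus the muscle difference was below 0 wherever the interaction was called. For SRT2104 minus SD it was -0.43 log2 units for Eif2ak2, -0.69 for Isg15, -0.79 for Usp18 and -0.75 for the brightest probe of Irgm1. For CR minus SD it was -0.87 for Isg15, -1.30 for Usp18 and -0.90 for Rsad2. The muscle signal of Isg15 was near the detection limit, so a fall there could go unseen. With 12 muscle arrays it was -0.33 for Irf9 and -0.65 for the brightest liver probe of Ifi27.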

How the results depend on the processing

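Over 23 gene comparisons, each on the brightest probe of the gene, no difference changed sign in 557 alternatives, and 75 changed a call. The comparisons were chosen because they passed the threshold in these data. In part of the alternatives the sign could not change. The fit with only the 2 diets, the replicate block, the t-tests and the omission of an array of the third diet keep the same difference of group means. On the other kept probe of Irgm1 in muscle the sign was the opposite (-0.31 with 15 and -0.28 with 12 arrays for SRT2104 minus SD). Of the counts of called members, SRT2104 minus SD in liver (4) became 2 with neqc, 8 with the deposited scores as they are, 8 with no detection filter, 2 with only the 2 diets in the fit, 0 by the methods' t-test after Benjamini-Hochberg and 9 by that t-test unadjusted, and 2 (without SRT2104 replicate 3) to 7 (without SRT2104 replicate 5) with 1 array left out. CR minus SD in liver (11) became 7 by the t-test after Benjamini-Hochberg, and 10 to 13 with 1 array left out. SRT2104 minus CR in liver (3) became 7 by the unadjusted t-test and 5 with any kept probe, and 2 to 4 with 1 array left out. In muscle, SRT2104 minus SD (1) became 0 with the deposited scores or no filter, 2 with detection on at least 10 arrays, 3 with only the 2 diets, 7 by the unadjusted t-test, 2 with 12 arrays, and 0 to 2 with 1 array left out. SRT2104 minus CR (0) became 1 with neqc or quantile normalization, 2 by the unadjusted t-test, 3 with 12 arrays, and 0 to 1 with 1 array left out. CR minus SD in muscle stayed at 0. The interaction count for SRT2104 (4) was 1 with the deposited scores, and that for CR (3) was 5 with 12 arrays. The share of all genes called was counted only for the main fits and the 12 muscle arrays. For SRT2104 minus SD in muscle it went from 3.99% higher and 5.33% lower with 15 arrays to 18.9% and 11.8% with 12. A changed count therefore cannot be read as a change in the members alone. The causes were not tested.

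Same-numbered arrays correlated at -0.25 to 0.31 in liver and -0.13 to 0.22 in muscle. Arrays with different numbers were not set beside them, so these values cannot show whether the numbers pair samples. With the replicate number as a block the counts were 4, 12 and 2 in liver for SRT2104 minus SD, CR minus SD and SRT2104 minus CR. In muscle the block gave 2 for SRT2104 minus SD and 1 for SRT2104 minus CR. With liver and muscle of 1 number as a block, the CR interaction count was 5.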
